A study of Rattus norvegicus with 8 samples.

Results

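The comparison described here set adipose-derived mesenchymal stem cells (ASCs) of PVG rats against those of LEW rats, both treated with lipopolysaccharide (LPS), the endotoxin of Gram-negative bacteria. Its 4 arrays, 1 per strain at 24 h and 1 per strain at 48 h, were chosen by their labels among the 8 arrays of the series. The question was what separates the cells of both strains under endotoxin across all genes. The series was made for a study of rat liver transplantation, in which LEW (Lewis/Jms) is the strain of acute rejection and PVG (Piebald Virol Glaxo) the strain of spontaneous tolerance. ASCs were isolated from inguinal and interscapular fat of 3 LEW and 3 PVG rats at 8 weeks of age. The cells of each rat were divided over 4 conditions, 24 h and 48 h of culture with PBS (control) and the same durations with LPS, dosed at 1 µg/ml. The RNA of the 3 rats of a strain was pooled in each condition, so each of the 4 groups (LEW control, PVG control, LEW LPS and PVG LPS) had 2 arrays, 1 per time point. The labels name no transgene or deletion in either strain. Since all arrays of a strain came from the same 3 rats, a p-value here measures the spread between arrays and time points, not between rats, and each strain is a single pool of animals.

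LPS is bound by CD14 and the receptor TLR4, whose adaptor MyD88 leads to NF-kB, the transcription factor that turns on genes of chemokines, cytokines, adhesion molecules and acute phase proteins. ASCs are fibroblast-like stromal cells of fat that make extracellular matrix, can differentiate towards fat, bone, cartilage and smooth muscle, and release prostanoids, chemokines and protease inhibitors that act on immune cells. Contractile genes of such cells are driven by serum response factor (SRF) with its actin-sensing cofactors and by TGF-beta, and genes of antigen presentation by interferons.

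Signals are Illumina bead intensities, scaled so that all arrays have the same 75th percentile. Where a pair of signals is given, the first is the 24 h array and the second the 48 h array. Differences are PVG minus LEW on the log2 scale with their standard error (SE), from a limma fit over all 8 arrays in which the time point was a block. A probe passed when its p, adjusted by Benjamini-Hochberg over all probes tested, was under 0.05. Tested were the 9067 probes that were detected on both arrays of at least 1 LPS group. All 4 LPS arrays detected 7834 of them. The rest entered through both arrays of 1 strain only, so counts of a gene list can lean towards that strain. A gene with several probes is given by its brightest one. A fold is written as a lower bound where the dimmer strain was undetected on both of its LPS arrays. The spread is that of 2 arrays a group throughout. A probe is specific to a sequence, so a variant between both strains under a probe and a difference in RNA level cannot be told apart here.

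The 4 LPS arrays detected between 9017 and 9350 probes each at a detection p under 0.05. MSC and fibroblast markers were detected on all 4 LPS arrays for 17 of 20 genes with a probe, and their summed signals were 106298 and 129275 in LEW and 96446 and 111326 in PVG. Markers of other cell types were measured on the same arrays. Of 22 leukocyte markers, 17 were undetected on all 4 arrays, the pan-leukocyte gene Ptprc among them, and the summed signals were 1678 and 1597 in LEW and 1873 and 1902 in PVG. The 4 tested (Lcp1, Fcer1g, Aif1 and Itgam) all had a difference above 0, but only 2 of them were detected on all 4 LPS arrays. The rest, Aif1 among them, entered the test through 1 strain alone, so the shared direction depends in part on the detection filter. The macrophage gene Aif1 was undetected in LEW (66.6 and 68.4) and had 87.2 and 91.6 in PVG (0.41, adjusted p = 0.0555). It did not pass, but did with quantile normalization, neqc and no detection filter, among other settings. A difference in the share of leukocytes was not tested. Of 12 markers of mature adipocytes, 5 were undetected on all 4 LPS arrays, the adipokine genes Adipoq and Lep among them, and 5 (Retn, Cfd, Pck1, Cidec and Lpl) were tested without passing, with summed signals for the list of 2399 and 6116 in LEW and 2804 and 4692 in PVG. The summed signals were 3298 and 3073 in LEW and 2774 and 2607 in PVG for Schwann and neural markers, 1551 and 2455 and 942 and 987 for pericyte markers and 1197 and 1154 and 1183 and 1181 for endothelial markers, of which Cdh5 and Vwf were undetected on all 4 LPS arrays, as were the muscle genes Myod1, Myog and Ckm. Lcp1, an actin-bundling protein gene of blood cells that other cells can express, was higher in PVG (log2 difference 1.29, adjusted p = 0.000196), as was Fcer1g, the shared Fc receptor gamma chain gene (0.69, adjusted p = 0.00580). Fcer1g no longer passed with the PVG LPS 48 h array left out (adjusted p = 0.119). Of 11 tested reference genes only B2m passed (-0.61, adjusted p = 0.0111), whose product is the light chain of MHC class I. B2m no longer passed with the LEW LPS 48 h array or the PVG LPS 48 h array left out (adjusted p up to 0.173). The brightest probe of Actb did not pass (0.34, adjusted p = 0.155, and 0.0336 with the LEW LPS 24 h array left out), while both of its dimmer probes were higher in PVG with log2 differences of 0.61 and 0.84. Tlr4 itself, the LPS receptor gene, was undetected on every LPS array.

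A strain difference under LPS was measured for 1179 of 9067 probes, of which 557 were higher in PVG (6.14%) and 622 higher in LEW (6.86%). The difference was at least 2-fold for 302 of these probes (135 higher in PVG and 167 in LEW) and at least 4-fold for 56 (25 and 31). Counted by gene, 954 of 6677 passed (14.3%), 450 higher in PVG (6.74%) and 504 higher in LEW (7.55%), and the median difference over all 6677 genes was -0.0012. These shares are the background for each gene group below. Every one of the 954 genes lay in the same direction at 24 h and at 48 h. The test favours this, since its difference is the mean of both time points and their disagreement adds to the residual spread. It is therefore no separate evidence of agreement between the time points. The passing differences had a median size of 0.72 on the log2 scale, against a median SE of 0.13 over all probes.

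The count of probes depended on single arrays. With a PVG LPS array left out it was 434 (48 h) or 560 (24 h), and with a LEW LPS array left out 676 (48 h) or 1540 (24 h). It was 580 without the time point block, and an analysis of variance of the same 4 groups with no block and with each probe's own residual variance, which borrows no information between probes, passed 62. The methods name a 2-way analysis of variance, whose exact terms and probe set were not rebuilt here.

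Differences between the single arrays of a time point have no replicate. A difference of at least 1.5-fold was seen for 717 probes at 24 h (326 higher in PVG and 391 in LEW) and for 1265 at 48 h (562 and 703). The 552 probes of both lists were 77.0% of the 24 h list and 43.6% of the 48 h list, and 551 of them had the same direction. The exception was the interleukin-1 beta gene Il1b, with signals of 119 and 223 in LEW and 188 and 145 in PVG, which was thus higher in PVG at 24 h and in LEW at 48 h. Over the passing probes, the median ratio of the difference at 48 h to that at 24 h was 1.27, and 336 of the 1179 had the larger difference at 24 h. The scatter plot of both time points sets these differences side by side.

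**Figure D1:**
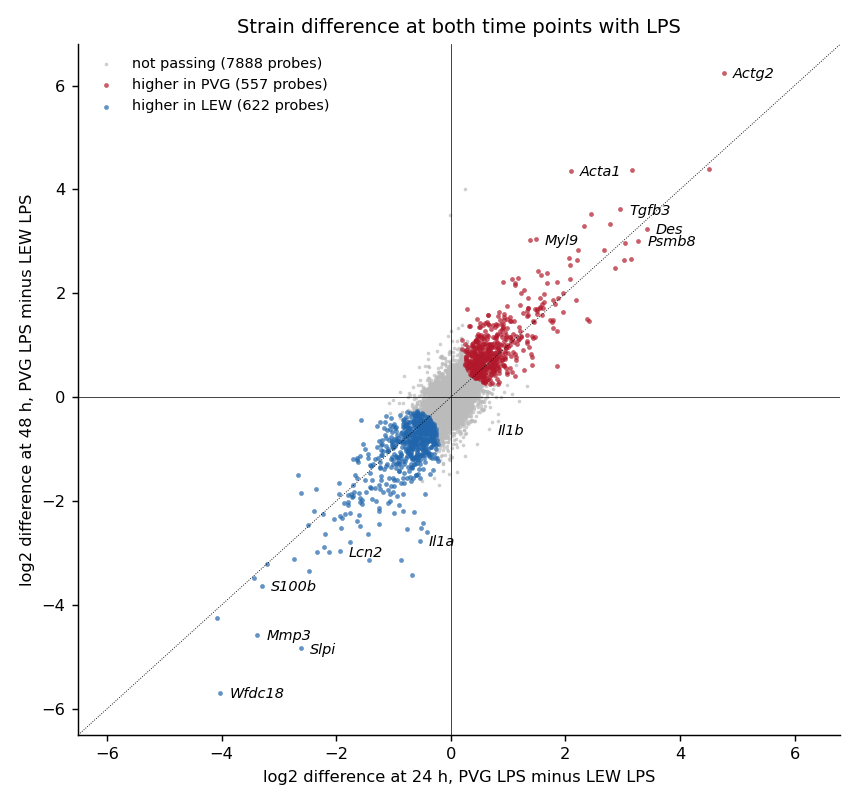
Each point is 1 of 9067 tested probes, with the log2 difference PVG minus LEW between the LPS arrays at 24 h on the x axis and at 48 h on the y axis. Red points are the 557 probes that passed with a higher signal in PVG, blue points the 622 higher in LEW and grey points the 7888 that did not pass. The passing probes lie in the quadrants of equal sign, which the test favours because it averages both time points.

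Among the genes furthest apart between the strains, those higher in PVG were led by contractile and cytoskeletal genes. Actg2, which encodes the gamma actin of smooth muscle, had signals of 221 and 97.2 in LEW and 6010 and 7373 in PVG, a 45.4-fold difference (log2 difference 5.50, SE 0.34, adjusted p = 8.01e-06). Des, the gene of the muscle intermediate filament desmin, had 105 and 93.6 in LEW and 1119 and 887 in PVG (10.1-fold, log2 difference 3.33, SE 0.15, adjusted p = 1.44e-06). Acta1, the alpha actin gene of skeletal muscle, had 707 and 274 in LEW and 3018 and 5597 in PVG (9.34-fold, log2 difference 3.22, SE 0.43, adjusted p = 0.00104). In pooled RNA of whole cultures, a larger share of cells that express a gene and more RNA per cell cannot be told apart. For all 3 genes both PVG arrays lay above both LEW arrays, and for Actg2 and Acta1 the LEW signal was lower at 48 h than at 24 h while the PVG signal was higher. Tagln, the gene of the actin-binding protein transgelin, had 3228 and 1673 in LEW and 9589 and 8551 in PVG (log2 difference 1.96, SE 0.18, adjusted p = 7.64e-05), and Myl9, a regulatory myosin light chain gene, had 569.9 and 316 in LEW and 1594 and 2593 in PVG (log2 difference 2.26, SE 0.29, adjusted p = 0.000798). Pdlim3, a PDZ and LIM domain protein gene of the actin cytoskeleton, was undetected on both LEW arrays (78.3 and 81) and reached 364 and 578 in PVG, at least 5.43-fold higher.

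Of the 22 contractile and smooth muscle genes tested, 16 were higher in PVG and 0 in LEW, against 6.74% and 7.55% of all genes, and the median difference of the list was 0.87. The other members higher in PVG were Pdlim7, Pdlim5, Csrp1, Fhl2, Fhl1, Cnn1, Flna, Tpm1, Cald1 and Smtn, which encode LIM proteins, calponin, filamin, tropomyosin, caldesmon and smoothelin. Tpm4, Actn1, Csrp2, Mylk, Sncg and Vcl did not pass. Actg2, Des, Acta1, Fhl1, Fhl2, Pdlim5 and Pdlim7 are named in the study's tables as differing between the strains on these samples. The count of the list is therefore in part not independent of that selection. The summed signals of the list were 30288 and 19568 in LEW and 58219 and 67543 in PVG, so both PVG arrays lay above both LEW arrays. The control arrays gave a similar count, with 19 members higher in PVG and 1 in LEW. Of the skeletal muscle markers, none of the 5 tested passed, and 13 of 20 with a probe were undetected on all 4 LPS arrays. The pericyte genes Rgs5, Notch3 and Mcam were undetected too, and of the 2 pericyte genes tested Cspg4, a surface proteoglycan gene, was higher in PVG (0.74, adjusted p = 0.00583) and Anpep, the gene of aminopeptidase N, higher in LEW (-1.93, adjusted p = 0.000278). Cspg4 no longer passed with the PVG LPS 48 h array left out (adjusted p = 0.0844).

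Other genes with the largest differences in this direction were Ckb, the brain-type creatine kinase gene (164 and 73.2 in LEW, detected on 1 of 2 arrays, and 894 and 845 in PVG, 7.94-fold), and Hspb7, a small heat shock protein gene of heart and muscle (154 and 102 in LEW and 708 and 636 in PVG, 5.36-fold). Lxn, the gene of the carboxypeptidase inhibitor latexin (134 and 151 in LEW and 1179 and 958 in PVG, 7.49-fold), Prss35, a serine protease family gene (419.9 and 176 in LEW and 2109 and 1721 in PVG, 7.02-fold), and Gng11, a G protein gamma subunit gene (268 and 329 in LEW and 1968 and 1840 in PVG, 6.40-fold), were likewise higher on both PVG arrays than on both LEW arrays. The adjusted p of these 5 genes was between 3.24e-06 and 5.64e-05. The plot of the genes furthest apart gives the 15 largest differences in each direction by array.

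**Figure D2:**
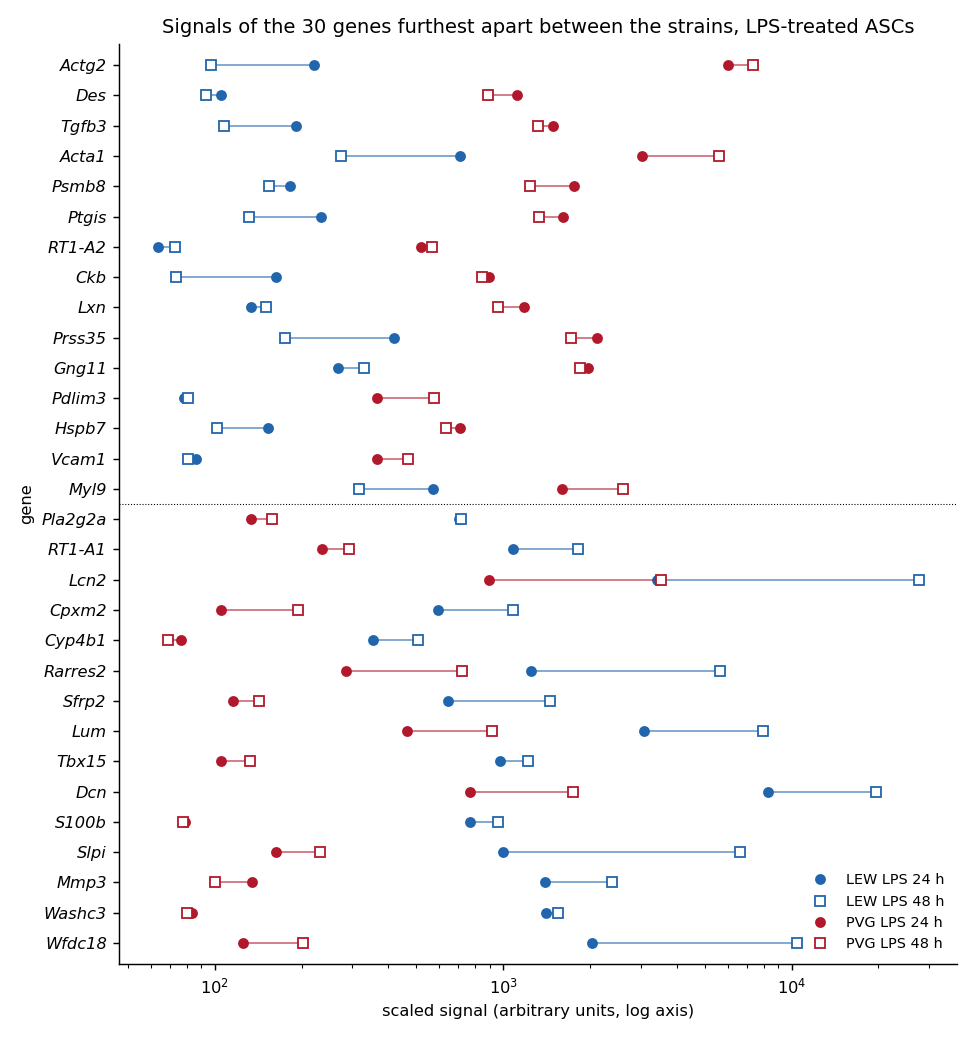
The 15 genes with the largest difference in each direction among those that passed, with the scaled signal on a log axis. Blue marks are LEW LPS arrays and red marks PVG LPS arrays, filled circles 24 h and open squares 48 h; Actg2 (45.4-fold higher in PVG) and Wfdc18 (29-fold higher in LEW) are the extremes, and Lcn2 is the 1 gene of the 30 in which marks of both strains overlap.

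The SRF-binding CArG box was searched on both strands in the promoters that RefSeq gives for 5611 tested genes, from 250 bases before to 50 after the start. It was held by 13 of 365 promoters of genes higher in PVG (3.56%), 2 of 400 of genes higher in LEW (0.500%) and 65 of all 5611 (1.16%), a description without a test. The 13 were Acta1, Fhl2, Fhl1, Egr1, Srf itself, Fbxl22, Svil, Fblim1, Mcm6, Zfp36, Camta2, Phlda2 and Gstp1. Svil passed narrowly (0.99, adjusted p = 0.0497) and kept its call in 4 of 14 alternative settings. The dimmer probe of Gstp1 did not pass (0.44, adjusted p = 0.0670). From the contractile list only Acta1, Fhl1 and Fhl2 were among them. Actg2, whose promoter was searched, held no box, and Des, Tagln and Myl9 were not among the 13. Srf had signals of 622 and 558 in LEW and 1201 and 1029 in PVG (log2 difference 0.92, SE 0.12, adjusted p = 0.000658) and was chosen after its value was seen. Fhl2, a LIM cofactor gene, had 610.4 and 499 in LEW and 1243 and 1121 in PVG (log2 difference 1.10, SE 0.13, adjusted p = 0.000551). The promoters of Acta1, Fhl2 and Srf (RefSeq, build GRCr8) are printed because these 3 genes were higher in PVG and hold the box, which is in capitals.
Acta1 promoter, chr19:68784145-68784444, minus strand: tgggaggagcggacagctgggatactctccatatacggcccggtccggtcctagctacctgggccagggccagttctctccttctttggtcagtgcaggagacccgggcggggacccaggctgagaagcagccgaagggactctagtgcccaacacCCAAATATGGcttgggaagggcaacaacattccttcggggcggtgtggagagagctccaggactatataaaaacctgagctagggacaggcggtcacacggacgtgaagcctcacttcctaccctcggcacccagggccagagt
Fhl2 promoter, chr9:52954491-52954790, minus strand: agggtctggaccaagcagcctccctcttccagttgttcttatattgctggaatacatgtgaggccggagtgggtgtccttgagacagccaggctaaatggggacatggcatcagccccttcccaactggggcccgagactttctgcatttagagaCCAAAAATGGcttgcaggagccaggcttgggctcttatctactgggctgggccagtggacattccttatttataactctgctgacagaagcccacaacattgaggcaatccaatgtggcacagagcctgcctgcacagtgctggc
Srf promoter, chr9:21923826-21924125, plus strand: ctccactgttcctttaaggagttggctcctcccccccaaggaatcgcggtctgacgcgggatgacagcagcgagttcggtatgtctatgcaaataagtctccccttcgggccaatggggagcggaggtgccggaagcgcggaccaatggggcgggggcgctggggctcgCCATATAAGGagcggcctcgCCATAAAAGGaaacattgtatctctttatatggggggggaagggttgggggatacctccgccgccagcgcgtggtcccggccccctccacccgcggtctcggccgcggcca
In Acta1 the box began 94 bases before the start, in Fhl2 95 bases before it, and Srf held 2 boxes, 81 and 61 bases before its start. A match of letters is not evidence that the factor was bound.

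All 3 TGF-beta ligand genes were higher in PVG. Tgfb3 had signals of 191 and 108 in LEW and 1486 and 1326 in PVG (9.78-fold, log2 difference 3.29, SE 0.20, adjusted p = 6.36e-06), and Tgfb2 had 595 and 472 in LEW and 2150 and 2190 in PVG (4.09-fold, log2 difference 2.03, SE 0.16, adjusted p = 2.85e-05). Tgfb1 had 438 and 319 in LEW and 984 and 680.2 in PVG (2.19-fold, log2 difference 1.13, SE 0.18, adjusted p = 0.00241), so both PVG arrays lay above both LEW arrays for each ligand. The follistatin genes Fst (1.16, adjusted p = 0.000447) and Fstl3 (1.26, adjusted p = 0.000261), whose products bind activin, were higher in PVG. Grem1, the gene of the BMP antagonist gremlin, was higher in LEW, with 3439 and 4993 there and 1523 and 1406 in PVG (log2 difference -1.50, SE 0.18, adjusted p = 0.000515). Of 20 genes tested, 7 were higher in PVG and 2 in LEW, Grem1 and the TGF-beta-induced gene Tgfbi, with a median of 0.19. The study's tables already name Tgfb1, Tgfb2, Tgfb3, Fst, Fstl3, Bmp6, Id1 and Grem1 as differing between the strains on these samples. These counts are therefore no independent evidence against the share of all genes. The TGF-beta binding protein genes Ltbp1 and Ltbp2 and the known TGF-beta target genes Ccn2 and Smad7 did not pass. The count of this list higher in LEW was 1 with the LEW LPS 48 h array or either PVG LPS array left out and 1 with no time point block.

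Matrix genes were split between the strains. The basement membrane collagen genes Col4a1 (607 and 459 in LEW and 1543 and 1715 in PVG, log2 difference 1.62, SE 0.14, adjusted p = 5.78e-05) and Col15a1 (956 and 577 in LEW and 3066 and 3010 in PVG, log2 difference 2.03, SE 0.17, adjusted p = 4.11e-05) were higher in PVG, 2 of 7 basement membrane genes tested with none higher in LEW. Col3a1, a fibrillar collagen gene, was also higher in PVG (3232 and 3698 in LEW and 8759 and 8180 in PVG, log2 difference 1.29, SE 0.16, adjusted p = 0.000551). Col14a1, whose product binds collagen fibrils, was higher in LEW (6483 and 8962 in LEW and 1943 and 2452 in PVG, log2 difference -1.80, SE 0.19, adjusted p = 0.000195). The collagen-modifying enzyme genes Plod1 and P4ha2 were higher in LEW too, which made 1 higher in PVG and 3 higher in LEW of 15 genes of fibrillar and other collagens, with a median of -0.02. The count higher in PVG was 2 with either LEW LPS array left out. The major fibrillar genes Col1a1 and Col1a2 did not pass.

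Small leucine-rich proteoglycans, which coat collagen fibrils, had some of the largest differences in favour of LEW. Dcn, the gene of decorin, had 8261 and 19576 in LEW and 767 and 1750 in PVG (11-fold, log2 difference -3.46, SE 0.25, adjusted p = 2.23e-05), and Lum, the gene of lumican, had 3079 and 7978 in LEW and 464 and 917 in PVG (7.60-fold, log2 difference -2.92, SE 0.29, adjusted p = 0.000160). For both, each PVG array was below each LEW array, and the signal was higher at 48 h than at 24 h in both strains. Aspn (-1.53, adjusted p = 0.00194), Ogn, Fbln1 and Mfap5 were higher in LEW as well. Prelp, another leucine-rich proteoglycan gene, went the other way, with 509 and 381 in LEW and 1283 and 1128 in PVG (log2 difference 1.45, SE 0.15, adjusted p = 0.000170), as did the fibrillin gene Fbn1 (1.03, adjusted p = 0.00253). Of 13 genes of small proteoglycans and elastic fibres tested, 2 were higher in PVG and 6 in LEW, with a median of -0.16. The leucine-rich proteoglycan genes Bgn and Fmod did not pass, nor did Fbln5, Mfap4 and Vcan. Of this list, the number higher in PVG was 1 with the PVG LPS 48 h array left out and 4 with either PVG control array left out. Fbn1 no longer passed with the PVG LPS 48 h array left out (adjusted p = 0.0507).

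Genes of matrix-degrading enzymes were mostly higher in LEW. Mmp3, the gene of stromelysin, had 1402 and 2380 in LEW and 135 and 100 in PVG (15.7-fold, log2 difference -3.98, SE 0.23, adjusted p = 6.26e-06). Adamts5, an aggrecan-cleaving protease gene, had 578 and 743 in LEW and 149 and 235 in PVG (3.50-fold, log2 difference -1.81, SE 0.16, adjusted p = 5.64e-05). The lysosomal cathepsin gene Ctsl had 16907 and 23278 in LEW and 9716 and 9934 in PVG (log2 difference -1.01, SE 0.15, adjusted p = 0.00202), and Ctsk, Ctsd and Ctsb were higher in LEW too. With the metalloproteinase genes Mmp19 and Adam17 and the inhibitor genes Timp2 and Serpine2, 10 of 18 genes were higher in LEW and 1, the macrophage elastase gene Mmp12, in PVG, with a median of -0.50 and 8 of the 18 higher in LEW in the controls. The count of matrix-degrading genes higher in LEW was 3 with the PVG LPS 48 h array left out, 5 with the PVG LPS 24 h array left out, 6 with the LEW LPS 48 h array left out and 4 with no time point block, and for PVG it was 0 with the LEW LPS 24 h array or either PVG LPS array left out and 0 with no time point block. Adam17 no longer passed with the PVG LPS 48 h array left out (adjusted p = 0.0626). Timp2 no longer passed with the LEW LPS 48 h array or the PVG LPS 48 h array left out (adjusted p up to 0.122).

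The gene with the largest difference in favour of LEW was Wfdc18, of the whey acidic protein family of small secreted proteins, with 2030 and 10467 in LEW and 125 and 202 in PVG (29-fold, log2 difference -4.86, SE 0.42, adjusted p = 5.75e-05). Slpi, the gene of the secretory leukocyte protease inhibitor and of the same family, had 998 and 6617 in LEW and 163 and 231 in PVG (13.2-fold, log2 difference -3.73, SE 0.49, adjusted p = 0.000816). Both were higher at 48 h than at 24 h on the LEW arrays, and each PVG array was below each LEW array. Of 19 genes of protease inhibitors and secreted immune modulators, 6 were higher in LEW and 3 in PVG, the latter Lxn, Tgfb1 and the galectin gene Lgals9, and the count higher in LEW was 3 with the PVG LPS 48 h array left out. Rarres2, the gene of the chemoattractant adipokine chemerin, had 1247 and 5668 in LEW and 285 and 718 in PVG (5.88-fold, log2 difference -2.55, SE 0.31, adjusted p = 0.000544).

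Acute phase and metal-binding genes that passed were all higher in LEW, 8 of 14 tested, with a median of -0.84 and 4 of 14 in the controls. Pla2g2a, which encodes a secreted antibacterial phospholipase, had 701 and 715 in LEW and 133 and 158 in PVG (4.89-fold, log2 difference -2.29, SE 0.12, adjusted p = 3.81e-06). The complement genes C1s (1140 and 3972 in LEW and 318 and 839.9 in PVG, log2 difference -2.04, SE 0.31, adjusted p = 0.00205), C2 (3512 and 7152 in LEW and 1157 and 2002 in PVG, log2 difference -1.72, SE 0.13, adjusted p = 2.23e-05), C1r (-0.98, adjusted p = 0.00155) and Cfb were higher in LEW. The metallothionein gene Mt1 had 31506 and 44573 in LEW and 16887 and 16567 in PVG (log2 difference -1.16, SE 0.16, adjusted p = 0.00122). Lcn2, the gene of the iron-siderophore binding protein lipocalin 2, had 3418 and 27718 in LEW and 894 and 3535 in PVG (log2 difference -2.45, SE 0.59, adjusted p = 0.0218), so the PVG array at 48 h was about level with the LEW array at 24 h and the groups overlapped. Lcn2 no longer passed with the LEW LPS 48 h array or any 1 PVG array left out (adjusted p up to 0.174). The count of the list was 5 with either PVG LPS array left out and 2 with no time point block. The haptoglobin gene Hp (147 and 312 in LEW and 83.8 and 208 in PVG, -0.70, adjusted p = 0.173) did not pass, but did with the LEW LPS 24 h array left out and in 3 other settings (adjusted p down to 0.00520).

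Genes of antigen presentation differed in both directions. Psmb8, the gene of an immunoproteasome subunit, had 183 and 154 in LEW and 1764 and 1241 in PVG (8.81-fold, log2 difference 3.14, SE 0.15, adjusted p = 1.93e-06). Other proteasome and peptide-loading genes higher in PVG were Psmb9, Psmb10, Psme1, Psme2, Tap1 and Tapbp. The class I genes of the rat RT1 complex went both ways. RT1-A2 was undetected on both LEW arrays (63.4 and 72.8) and had 519 and 566 in PVG, at least 6.42-fold higher, and RT1-A3 had 179 and 288 in LEW and 937 and 816 in PVG (log2 difference 1.94, SE 0.18, adjusted p = 9.19e-05). RT1-A1 had 1079 and 1822 in LEW and 236 and 292 in PVG (log2 difference -2.42, SE 0.19, adjusted p = 2.85e-05), and RT1-CE15 had 426 and 423 in LEW and 111 and 86.9 in PVG (log2 difference -2.11, SE 0.13, adjusted p = 9.10e-06). RT1 class I genes are near copies of each other and differ in sequence between strains, so for them a probe can read several genes, and the strains' haplotypes and their RNA levels cannot be told apart. In all, 11 of 23 genes were higher in PVG and 4 in LEW, with a median of 0.21, against 5 and 4 and a median of 0.14 in the controls. No member passed the test of a changed strain difference with LPS, given below. The count higher in PVG was 4 with the PVG LPS 24 h array left out, 6 with the LEW LPS 48 h array or the PVG LPS 48 h array left out and 7 with no time point block, and that higher in LEW was 2 with the LEW LPS 48 h array or the PVG LPS 48 h array left out and 2 with no time point block.

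Interferon-stimulated genes that passed were higher in PVG, 6 of 17 tested with 0 higher in LEW and a median of 0.34, against 3 and 1 in the controls. No member passed the test of a changed strain difference with LPS, given below. All 4 LPS arrays detected 10 of the 17. The others, Oasl2, Irf7 and Ifi44 among them, entered the test through 1 strain alone, so this count depends in part on the detection filter. Oasl2, of the oligoadenylate synthetase family, was undetected on both LEW arrays (84.5 and 78.8) and had 328 and 247 in PVG, at least 3.37-fold higher. Irf1, a transcription factor gene of the interferon response, had 222 and 183 in LEW and 399.6 and 343 in PVG (log2 difference 0.88, SE 0.13, adjusted p = 0.00197). Ifitm1, a gene of an antiviral membrane protein, had 251 and 234 in LEW and 490.1 and 537 in PVG (log2 difference 1.08, SE 0.16, adjusted p = 0.00174). Both PVG arrays lay above both LEW arrays for these 3 genes. Irf7 (1.09, adjusted p = 0.0138), Ifi44 (1.02, adjusted p = 0.00477) and Gbp2 passed as well, while Mx1, Stat2, Ifit2 and Bst2 did not, and 14 members of the list, with Isg15, Ifit1 and Cxcl10 among them, were undetected on all 4 LPS arrays. The count of the list was 3 with the PVG LPS 24 h array left out. Irf7 no longer passed with the PVG LPS 24 h array or either PVG control array left out (adjusted p up to 0.160). Ifi44 no longer passed with the PVG LPS 24 h array left out (adjusted p = 0.0593).

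The core of the interferon response element, GAAANNGAA, was searched on both strands in the same promoters. It was held by 32 of 365 promoters of genes higher in PVG (8.77%), 20 of 400 of genes higher in LEW (5.0%) and 385 of all 5611 (6.86%), which is again a description. The promoters of Psmb8 and Ifi44 (RefSeq, build GRCr8) are printed as 2 genes higher in PVG that hold it, with the matches in capitals, which lie on the reverse strand of the printed letters.
Psmb8 promoter, chr20:4656982-4657281, minus strand: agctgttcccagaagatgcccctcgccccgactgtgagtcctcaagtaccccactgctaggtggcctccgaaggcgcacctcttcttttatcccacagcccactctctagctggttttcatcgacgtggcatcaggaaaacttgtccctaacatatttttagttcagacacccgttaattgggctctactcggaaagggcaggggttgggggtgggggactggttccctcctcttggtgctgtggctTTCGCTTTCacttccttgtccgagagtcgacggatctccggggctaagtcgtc
Ifi44 promoter, chr2:243303791-243304090, minus strand: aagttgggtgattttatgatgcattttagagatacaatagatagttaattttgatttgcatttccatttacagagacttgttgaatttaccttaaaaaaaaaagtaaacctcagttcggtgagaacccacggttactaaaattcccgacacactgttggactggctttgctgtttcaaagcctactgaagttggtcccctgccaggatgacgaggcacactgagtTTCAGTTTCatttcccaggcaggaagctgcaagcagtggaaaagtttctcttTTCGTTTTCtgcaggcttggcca
The match in Psmb8 began 3 bases before the start, and Ifi44 held 1 match 25 bases before its start and 1 at position 27 after it.

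Chemokine genes passed in both directions, 4 of 16 tested higher in PVG and 4 in LEW, with a median of -0.18, against 1 and 4 in the controls. Cxcl6 and Cxcl1, ligand genes of the neutrophil receptor CXCR2, were higher in LEW. Cxcl6 had 356 and 357 in LEW and 127 and 118 in PVG (log2 difference -1.54, SE 0.13, adjusted p = 5.65e-05), and Cxcl1 had 2467 and 3853 in LEW and 1804 and 1065 in PVG (log2 difference -1.15, SE 0.25, adjusted p = 0.0134). Cxcl13, the B cell attractant gene, had 224 and 459 in LEW and was undetected in PVG (75 and 81.8), at least 3.79-fold higher in LEW. Ccl20, the ligand gene of CCR6, had 4369 and 10290 in LEW and 2180 and 3520 in PVG (log2 difference -1.27, SE 0.25, adjusted p = 0.00768). Pf4, Cx3cl1, Cxcl16 and Ccl12 were higher in PVG, of which Pf4 (71.1 and 62.6 in LEW, undetected, and 105 and 137 in PVG) was at least 1.42-fold higher and Cx3cl1 (81.8 and 75.3, undetected, and 115 and 143) at least 1.52-fold. Ccl12 (82.7 and 77.1, undetected, and 118 and 106) was at least 1.32-fold higher. Pf4, Cx3cl1 and Ccl12 thus entered the test through PVG alone, and Cxcl13 through LEW alone, so both counts depend in part on the detection filter. The monocyte attractant genes Ccl2 (8974 and 9784 in LEW and 7615 and 8269 in PVG, -0.24, adjusted p = 0.297) and Ccl7 (6217 and 10178 in LEW and 5810 and 7637 in PVG, -0.26, adjusted p = 0.566) did not pass under LPS, nor did Ccl11 (-0.48, adjusted p = 0.418) and Cxcl12 (-0.58, adjusted p = 0.0593). Cxcl12 passed, higher in LEW, with the LEW LPS 24 h array left out, with the LPS arrays alone and the block, with separate time blocks and with no detection filter (adjusted p down to 0.00794). The count higher in PVG was 1 with either PVG LPS array left out, 2 with the LEW LPS 48 h array left out and 2 with no time point block, and that higher in LEW was 2 with the PVG LPS 48 h array left out. Cxcl1 no longer passed with the LEW LPS 48 h array, the PVG LPS 48 h array or either PVG control array left out (adjusted p up to 0.158). Ccl20 and Pf4 no longer passed with the PVG LPS 48 h array left out (adjusted p = 0.0944 and 0.0894). Cx3cl1 no longer passed with the LEW LPS 48 h array or either PVG LPS array left out (adjusted p up to 0.174).

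Among interleukins and cytokines, Il15, a growth factor gene for natural killer and memory T cells, had 127 and 148 in LEW and 289.7 and 323 in PVG (log2 difference 1.15, SE 0.14, adjusted p = 0.000530), and Il1rl1, the gene of the interleukin-33 receptor, had 3294 and 4250 in LEW and 6292 and 7191 in PVG (log2 difference 0.85, SE 0.13, adjusted p = 0.00250). Tnfrsf11b, the gene of the decoy receptor osteoprotegerin, was the other member higher in PVG (0.86, adjusted p = 0.0102). Il1a, the interleukin-1 alpha gene, had 180 and 743 in LEW and 123 and 109 in PVG (log2 difference -1.66, SE 0.41, adjusted p = 0.0238), and Il6 had 135 and 223 in LEW and 107 and 104 in PVG (log2 difference -0.72, SE 0.20, adjusted p = 0.0388), both higher in LEW, where the 48 h array was the highest of the 4. Of the remaining genes on this list, 6 were tested without passing and Tnf, Il10, Il12a and Csf2 were among 14 undetected on all 4 LPS arrays. Il1a no longer passed with the PVG LPS 48 h array or either PVG control array left out (adjusted p up to 0.265). Il6 no longer passed with the LEW LPS 48 h array or any 1 PVG array left out (adjusted p up to 0.343). Tnfrsf11b no longer passed with the PVG LPS 24 h array left out (adjusted p = 0.130). The cytokine genes higher in LEW numbered 0 with the PVG LPS 48 h array or either PVG control array left out, 1 with the LEW LPS 48 h array or the PVG LPS 24 h array left out, 4 with the LEW LPS 24 h array left out and 0 with no time point block.

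Genes of the TLR and NF-kB response passed in 4 of 22 cases, 2 higher in PVG and 2 in LEW, with a median of -0.07. Vcam1, the adhesion molecule gene for lymphocytes and monocytes, had 86 and 80.8 in LEW, where 1 of 2 arrays detected it, and 365 and 469 in PVG (log2 difference 2.31, SE 0.17, adjusted p = 2.21e-05). Icam1, the ligand gene of leukocyte integrins, had 972 and 1583 in LEW and 2146 and 2608 in PVG (log2 difference 0.93, SE 0.14, adjusted p = 0.00172). Irak3, the gene of a kinase-like inhibitor of TLR signalling, was higher in LEW, with 593 and 758 there and 274 and 312 in PVG (log2 difference -1.20, SE 0.12, adjusted p = 0.000168), as was Nfkbiz, an atypical IkB gene (-0.97, adjusted p = 0.00580). The genes of Cd14, Myd88, Nfkb1, Rela, Nfkbia and Sod2 did not pass. Nfkbiz no longer passed with the PVG LPS 48 h array left out (adjusted p = 0.0930). On this list the number higher in LEW was 1 with the PVG LPS 48 h array left out and 4 with the LEW LPS 24 h array left out, and for PVG 1 with no time point block.

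Genes of prostanoid synthesis passed in both directions. Ptgis, the gene of prostacyclin synthase, had 234 and 132 in LEW and 1615 and 1334 in PVG (8.36-fold, log2 difference 3.06, SE 0.15, adjusted p = 1.65e-06). Ptges, the gene of inducible prostaglandin E synthase, had 279 and 429 in LEW and 82.4 and 91.5 in PVG, where 1 of 2 arrays detected it (3.99-fold, log2 difference -2.0, SE 0.14, adjusted p = 2.21e-05). Of the genes of earlier steps, Pla2g2a was higher in LEW, as given above, and so was the inducible cyclooxygenase gene Ptgs2, with 811 and 1100 in LEW and 688 and 489 in PVG (log2 difference -0.70, SE 0.20, adjusted p = 0.0477). Ptgr1, the gene of a prostaglandin reductase, was higher in LEW too (-0.72, adjusted p = 0.00374). Of 10 genes tested, 1 was higher in PVG and 4 in LEW, and Nos2, the gene of inducible nitric oxide synthase, was undetected on all 4 LPS arrays. In LEW the count was 2 with the PVG LPS 48 h array left out and 2 with no time point block. Ptgs2 no longer passed with the LEW LPS 48 h array or any 1 PVG array left out (adjusted p up to 0.436). Ptgr1 no longer passed with the PVG LPS 48 h array left out (adjusted p = 0.0561).

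Hypoxia and glycolysis genes that passed were higher in LEW with 1 exception, 14 of 33 tested against 1 higher in PVG, with a median of -0.41 and 11 of 33 higher in LEW in the controls. Stc1, the gene of the hormone stanniocalcin, had 520.1 and 903 in LEW and 111 and 191 in PVG (4.70-fold, log2 difference -2.23, SE 0.23, adjusted p = 0.000207). Ddit4, an inhibitor gene of mTORC1 that hypoxia induces, had 1233 and 2348 in LEW and 357 and 580.5 in PVG (3.74-fold, log2 difference -1.90, SE 0.21, adjusted p = 0.000261), and Adm, the gene of the vasodilator adrenomedullin, had 1239 and 2059 in LEW and 478 and 527 in PVG (3.18-fold, log2 difference -1.67, SE 0.24, adjusted p = 0.00161). For these 3 genes the lowest LEW array was above the highest PVG array. Vegfa (-0.81, adjusted p = 0.00751), Hif1a, Pdk1, Hk2, Slc16a3 and Bnip3l were also higher in LEW. Bnip3, a mitophagy receptor gene and the exception, had 566 and 801 in LEW and 2042 and 1937 in PVG (log2 difference 1.56, SE 0.20, adjusted p = 0.000724). Most glycolytic enzyme genes, with Ldha, Eno1, Pkm and Gapdh among them, did not pass. The hypoxia response core, ACGTG or GCGTG, was in 57.5% of 400 promoters of genes higher in LEW, 62.2% of 365 of genes higher in PVG and 63.8% of all 5611. The hypoxia count for LEW was 4 with the PVG LPS 24 h array left out, 7 with the PVG LPS 48 h array left out and 9 with no time point block. Vegfa no longer passed with the PVG LPS 24 h array left out (adjusted p = 0.106).

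Angiogenic and vasoactive genes went both ways, 4 of 20 higher in PVG and 7 in LEW. Edn1, the gene of the vasoconstrictor endothelin 1, had 678 and 612 in LEW and 1493 and 1378 in PVG (log2 difference 1.16, SE 0.12, adjusted p = 0.000207), and the growth factor genes Vegfc (0.80, adjusted p = 0.0105), Pgf (1.01, adjusted p = 0.00795) and Pdgfa (0.42, adjusted p = 0.0331) were higher in PVG too. Thbs2, the gene of the angiogenesis inhibitor thrombospondin 2, had 3190 and 5387 in LEW and 520.1 and 1506 in PVG (4.68-fold, log2 difference -2.23, SE 0.24, adjusted p = 0.000262). Vegfb had 143 and 306 in LEW and was undetected in PVG (74.8 and 82.1), at least 2.48-fold higher in LEW. Angptl4 was higher in LEW by its brightest probe (-1.29, adjusted p = 0.00118), whereas its other probe had a log2 difference of -0.12. The angiogenic count for PVG was 1 with the PVG LPS 48 h array left out, 2 with the PVG LPS 24 h array left out and 2 with no time point block. Vegfc no longer passed with either PVG LPS array left out (adjusted p up to 0.0873). Pgf no longer passed with the PVG LPS 48 h array left out (adjusted p = 0.126). Pdgfa no longer passed with any 1 LEW array or either PVG LPS array left out (adjusted p up to 0.220).

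Of antioxidant genes, 6 of 23 were higher in LEW and 2 in PVG. Hmox1, the gene of the haem-degrading enzyme heme oxygenase 1, had 6101 and 9611 in LEW and 1859 and 2583 in PVG (3.50-fold, log2 difference -1.80, SE 0.17, adjusted p = 9.42e-05). Sod3, the extracellular superoxide dismutase gene (-1.25, adjusted p = 0.000588), Gclc, a glutathione synthesis gene (-1.24, adjusted p = 0.000564), Mgst1, Gsta4 and Cat were higher in LEW, and Gpx1 and Gstp1 in PVG. The gene of NRF2 itself, Nfe2l2, did not pass (-0.08, adjusted p = 0.907). In the stress list of unfolded protein and amino acid genes, the serine synthesis gene Phgdh had 739.7 and 309 in LEW and 1784 and 1291 in PVG (log2 difference 1.67, SE 0.20, adjusted p = 0.000441), and Psph (0.79, adjusted p = 0.00497) and the asparagine synthetase gene Asns (0.68, adjusted p = 0.00454) were higher in PVG, while Ddit3 (-0.81, adjusted p = 0.00642) and Sdf2l1 (-1.16, adjusted p = 0.000278) were higher in LEW and 18 members did not pass. The antioxidant count higher in LEW was 3 with the PVG LPS 48 h array left out, and that higher in PVG was 0 with the LEW LPS 48 h array or either PVG LPS array left out, 1 with either PVG control array left out and 0 with no time point block. On the stress list the number higher in PVG was 1 with the PVG LPS 48 h array left out, and for LEW 1 with the PVG LPS 24 h array left out. Mgst1, Psph and Asns no longer passed with the PVG LPS 48 h array left out (adjusted p = 0.0507, 0.0850 and 0.0862). Gsta4 no longer passed with the LEW LPS 48 h array or either PVG LPS array left out (adjusted p up to 0.112). Ddit3 no longer passed with the PVG LPS 24 h array left out (adjusted p = 0.0779).

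Cell cycle genes that passed were higher in PVG, 6 of 21 of mitosis and 5 of 21 of DNA replication, with none higher in LEW and medians of 0.45 and 0.28. All 4 LPS arrays detected 9 of the 21 mitosis genes and 16 of the 21 replication genes. The others entered the test through 1 strain alone, as Bub1b did through PVG, so these counts depend in part on the detection filter. Rrm2, the gene of the ribonucleotide reductase subunit, had 858 and 162 in LEW and 1351 and 365 in PVG (log2 difference 0.91, SE 0.15, adjusted p = 0.00344). Mcm6, a replicative helicase gene, had 681 and 177 in LEW and 941 and 413 in PVG (log2 difference 0.85, SE 0.18, adjusted p = 0.0134), and Prc1, the gene of a spindle midzone protein, had 403 and 93.7 in LEW and 704 and 244 in PVG (log2 difference 1.09, SE 0.19, adjusted p = 0.00468). In these 3 genes the 48 h arrays of both strains were far below the 24 h arrays, so PVG lay above LEW within each time point while the 48 h PVG array was below the 24 h LEW array. The calls therefore rested on the time point block. The mitosis count was 0 with the PVG LPS 48 h array left out, 1 with the LEW LPS 48 h array or the PVG LPS 24 h array left out, 3 with either PVG control array left out, 14 with the LEW LPS 24 h array left out and 0 with no time point block, and the replication count was 1 with the PVG LPS 48 h array left out, 2 with the LEW LPS 48 h array or the PVG LPS 24 h array left out and 0 with no time point block. Rrm2 and Prc1 no longer passed with the PVG LPS 48 h array left out (adjusted p = 0.0572 and 0.0505). Mcm6 no longer passed with the LEW LPS 48 h array or the PVG LPS 48 h array left out (adjusted p up to 0.162). Growth arrest genes passed in the other direction, 5 of 15 higher in LEW with a median of -0.18. Ccng2, the gene of cyclin G2, had 244 and 369.7 in LEW and 121 and 151 in PVG (log2 difference -1.15, SE 0.13, adjusted p = 0.000378), and the others were the stress-inducible genes Gadd45a, Gadd45b and Gadd45g and the caspase gene Casp6. That count was 2 with either PVG LPS array left out, 3 with the LEW LPS 48 h array left out and 3 with no time point block. Gadd45a no longer passed with the PVG LPS 24 h array left out (adjusted p = 0.0529). Gadd45b no longer passed with any 1 LEW array or either PVG LPS array left out (adjusted p up to 0.260). Gadd45g no longer passed with the PVG LPS 48 h array left out (adjusted p = 0.0984). Casp6 no longer passed with the LEW LPS 48 h array or either PVG LPS array left out (adjusted p up to 0.323).

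Transcription factor genes of mesenchymal lineage and position differed in both directions. Tbx15, a T-box factor gene of limb and subcutaneous fat, had 977 and 1222 in LEW and 106 and 132 in PVG (9.23-fold, log2 difference -3.21, SE 0.11, adjusted p = 3.31e-07). Gata2, a factor gene of blood and of fat precursor cells, had 116 and 89.1 in LEW and 322 and 288 in PVG (log2 difference 1.58, SE 0.13, adjusted p = 3.68e-05). Tcf21, a factor gene of visceral mesenchyme, was undetected in LEW (62.2 and 64.7) and had 188 and 224 in PVG, at least 2.43-fold higher. Wt1, a factor gene of mesothelium and visceral fat precursors, was undetected in LEW (80.7 and 79.3) and had 228 and 242 in PVG, at least 2.78-fold higher, and Dlx5, an osteoblast factor gene, 70.8 and 66.6, undetected, and 165 and 150.2, at least 1.86-fold. Of 15 lineage factors tested, 9 were higher in PVG and 3 in LEW (Tcf4, Twist1 and Twist2), with a median of 0.64, or 0.29 with genes undetected in 1 strain at their lower bound. Tcf21, Wt1, Dlx5 and Alx1 entered the test through PVG alone, so the count higher in PVG depends in part on the detection filter. The study's tables already name Tcf21, Gata2, Wt1, Dlx5, Alx1, Egr1, Gata6, Mycn, Tcf4 and Twist2 as differing between the strains on these samples. The counts of lineage factors are therefore no independent evidence against the share of all genes. The lineage factors higher in LEW numbered 1 with the PVG LPS 48 h array left out. HOX and limb position genes were 3 of 17 higher in PVG and 5 in LEW. Hoxd10 was undetected in LEW (73.4 and 69.9 and, in PVG, 128 and 131), and Hoxb8 was undetected in PVG (169 and 162 in LEW and 73.2 and 75.5 in PVG), at least 1.54-fold and 1.96-fold apart. The HOX count higher in LEW was 3 with the PVG LPS 48 h array left out. Of the mesothelial markers, Krt7, a keratin gene, was higher in PVG together with Wt1 (510.3 and 210.2 in LEW and 939 and 559 in PVG, log2 difference 1.15, SE 0.14, adjusted p = 0.000551), Msln and Krt8 did not pass, and Cdh1, Upk1b and Krt19 were undetected on all 4 LPS arrays. The summed signals of the mesothelial list were 1544 and 1386 in LEW and 2163 and 1780 in PVG, and their part in the difference of Wt1 was not tested.

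S100b, a calcium-binding protein gene of glia and adipose cells, had 769 and 962 in LEW and was undetected in PVG (78.7 and 77.4), at least 10.2-fold higher in LEW, while Nes, the gene of the intermediate filament nestin, was undetected in LEW (79.2 and 68.1) and had 219.8 and 152 in PVG, at least 2.17-fold higher. The Schwann and neural genes Sox10, Gfap and Gap43 were undetected on all 4 LPS arrays. Washc3, the gene of a subunit of the endosomal WASH complex, had 1405 and 1544 in LEW and 83.3 and 80.5 in PVG, where 1 of 2 arrays detected it (18-fold, log2 difference -4.17, SE 0.13, adjusted p = 2.96e-07). Sfrp2, the gene of a secreted Wnt modulator, had 644 and 1458 in LEW and 116 and 143 in PVG (7.53-fold, log2 difference -2.91, SE 0.22, adjusted p = 2.85e-05). Cpxm2, of the carboxypeptidase family, had 593 and 1078 in LEW and 105 and 195 in PVG (5.59-fold), and Cyp4b1, a cytochrome P450 gene, had 354 and 507 in LEW and was undetected in PVG (76.3 and 69.1), at least 5.02-fold higher in LEW. Each of these LEW-side genes had both PVG arrays below both LEW arrays.

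Adhesion genes were higher in PVG for 7 of 23 and in LEW for 4, with a median of 0.23, or 0.14 with genes undetected in 1 strain at their lower bound. Beside Vcam1 and Icam1, Itga1, a collagen-binding integrin gene, had 139 and 154 in LEW and 428 and 547 in PVG (log2 difference 1.72, SE 0.16, adjusted p = 8.82e-05), and F11r, the gene of a junctional adhesion molecule, had 153 and 129 in LEW and 488 and 594 in PVG (log2 difference 1.94, SE 0.14, adjusted p = 2.56e-05). Cd47, whose product inhibits phagocytosis, was higher in LEW, with 639 and 891 there and 271 and 351 in PVG (log2 difference -1.29, SE 0.15, adjusted p = 0.000394), as were Alcam, Gja1 and Cdh13. The count higher in PVG was 4 with the PVG LPS 48 h array left out and 4 with no time point block, and that higher in LEW was 2 with either PVG LPS array left out and 1 with no time point block. Pdgfra, the PDGF receptor alpha gene of stromal cells, was higher in LEW (989 and 1926 and, in PVG, 452 and 766, log2 difference -1.23, SE 0.18, adjusted p = 0.00145).

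The remaining groups held few genes that passed. Cholesterol biosynthesis had 1 of 17 genes higher in PVG, Hsd17b7 (0.41, adjusted p = 0.0355), and adipogenic and lipid handling genes had 1 of 19 higher in LEW, the transcription factor gene Klf15 (-0.84, adjusted p = 0.00679), while Pparg was undetected on all 4 LPS arrays. In the insulin-like growth factor system, Pappa, the gene of a protease that cleaves growth factor binding proteins (282 and 516 in LEW and 151 and 192 in PVG, log2 difference -1.16, SE 0.15, adjusted p = 0.000955), and Igfbp6 (-0.59, adjusted p = 0.0388) were higher in LEW, 2 of 9. Hsd17b7 no longer passed with any 1 LEW array or either PVG LPS array left out (adjusted p up to 0.237). Klf15 no longer passed with the PVG LPS 48 h array left out (adjusted p = 0.0940). Igfbp6 no longer passed with the LEW LPS 24 h array or any 1 PVG array left out (adjusted p up to 0.300). The cholesterol genes higher in PVG numbered 0 with the LEW LPS 48 h array, either LEW control array or either PVG LPS array left out, 4 with the LEW LPS 24 h array left out and 0 with no time point block. For the adipogenic genes higher in LEW the number was 0 with the PVG LPS 48 h array left out, 2 with the LEW LPS 24 h array or either PVG control array left out and 0 with no time point block, and for those of the growth factor system 1 with any 1 PVG array left out and 1 with no time point block. The bar plot of the 27 lists shows that contractile genes had the largest share higher in PVG and acute phase genes the largest share higher in LEW.

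**Figure D3:**
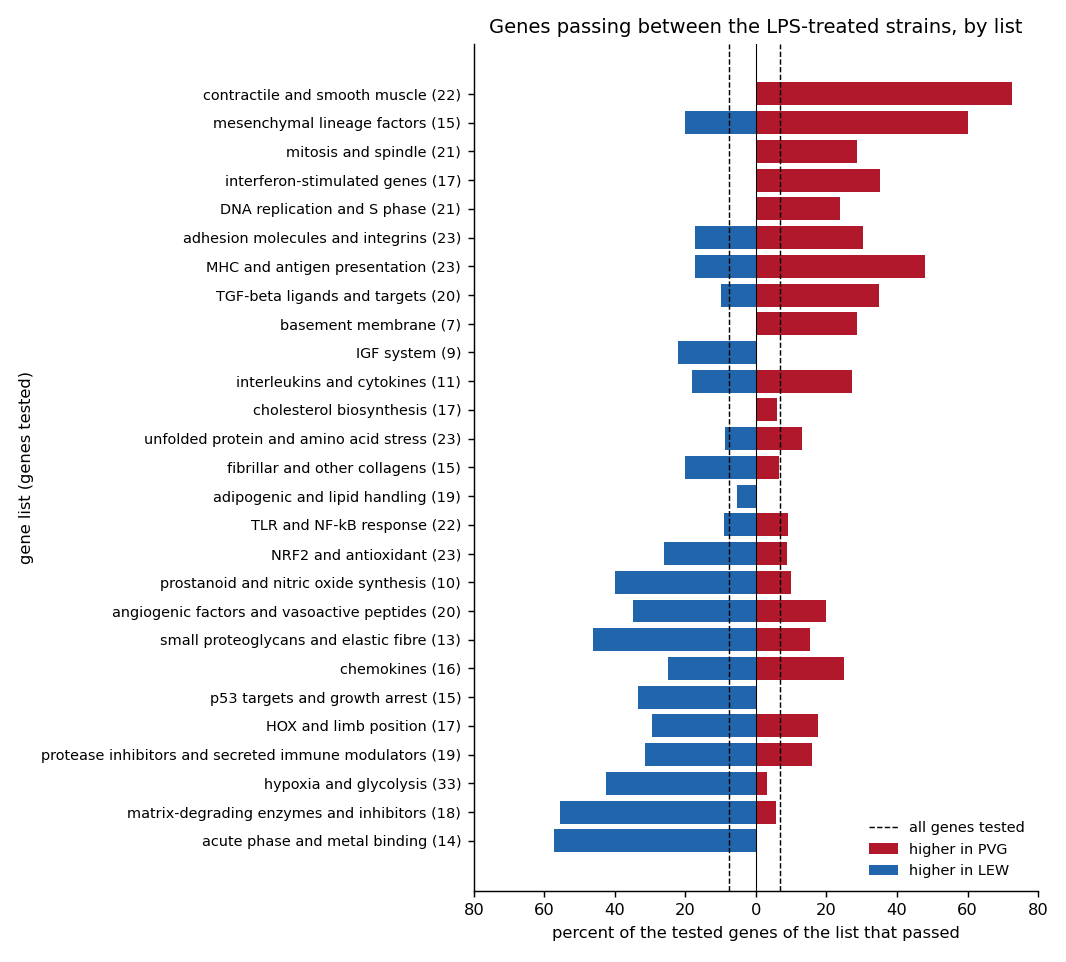
For each of 27 gene lists, the percent of tested members that were higher in PVG (red, to the right) and higher in LEW (blue, to the left), with the lists ordered by their median difference. Dashed lines mark the shares of all genes, 6.74% higher in PVG and 7.55% higher in LEW; 16 of 22 contractile genes lie to the right and 8 of 14 acute phase genes to the left.

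Followed here were 48 genes of the study's tables, without most of its longer list of cell differentiation genes. That longer list also holds members of several gene lists above, such as Tcf21, Tgfb1, Itga1 and F11r. Both sets were chosen on these samples and so are no independent evidence of a direction. Of the 48, a probe was found for 47, of which 45 were tested, and 21 were higher in PVG and 11 in LEW. Beside those above, the adaptor gene Shc1 was higher in LEW (371 and 469 and, in PVG, 115 and 133, log2 difference -1.76, SE 0.12, adjusted p = 1.68e-05), as was Prl8a9, a prolactin family gene (-0.83, adjusted p = 0.00210). F2r, the thrombin receptor gene (3981 and 3760 in LEW and 6501 and 7322 in PVG, log2 difference 0.83, SE 0.12, adjusted p = 0.00190), and Itpr1, a calcium channel gene of the endoplasmic reticulum (227 and 152 in LEW and 451 and 511 in PVG, log2 difference 1.37, SE 0.17, adjusted p = 0.000701), were higher in PVG. Egr1 (0.93, adjusted p = 0.00690) and Mycn (0.53, adjusted p = 0.0390) passed in the same direction. Cebpb (-0.66, adjusted p = 0.109), Plod2 (0.38, adjusted p = 0.328), Bdkrb1 (0.26, adjusted p = 0.194), Nfatc4 (-0.46, adjusted p = 0.0587) and Rxra (-0.04, adjusted p = 0.895) did not pass, and Nkx2-5 was undetected on all 4 LPS arrays. Cebpb passed with no detection filter, as it did with the LEW LPS 24 h array or either PVG control array left out, and Plod2 passed with the LEW LPS 48 h array left out (adjusted p down to 0.00799 and 0.00970). Prl8a9 no longer passed with the PVG LPS 48 h array left out (adjusted p = 0.0507). Egr1 no longer passed with the PVG LPS 24 h array left out (adjusted p = 0.0935). Mycn no longer passed with the LEW LPS 48 h array or any 1 PVG array left out (adjusted p up to 0.231).

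The same strain contrast on the control arrays passed 935 of 6677 genes (14.0%), 492 higher in PVG (7.37%) and 443 higher in LEW (6.63%). The probes were kept by detection on the LPS arrays, so genes detected in control cells alone were not counted here or in the interaction. Counted by probe, 746 passed both with LPS and in the controls, all in the same direction, which is 63.3% of the 1179 LPS calls and 64.03% of the 1165 control calls. Of the 433 probes that passed with LPS alone, 410 had the same sign in the controls, which does not show that they differed between treatments. The list counts given above with LPS and in the controls are likewise no test of a change. Actg2 had control signals of 323 and 189 in LEW and 8660 and 12654 in PVG (log2 difference 5.40 in the controls against 5.50 with LPS), Dcn 5382 and 8751 in LEW and 376 and 372 in PVG (-4.20 against -3.46), and Tbx15 1076 and 1240 in LEW and 114 and 136 in PVG (-3.21 against -3.21). The interaction, which tests whether the strain difference under LPS differs from that in the controls, passed for 6 of 9067 probes, or 0.0662%, at a median SE of 0.18, and for 460 at an unadjusted p under 0.05.

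**Figure D4:**
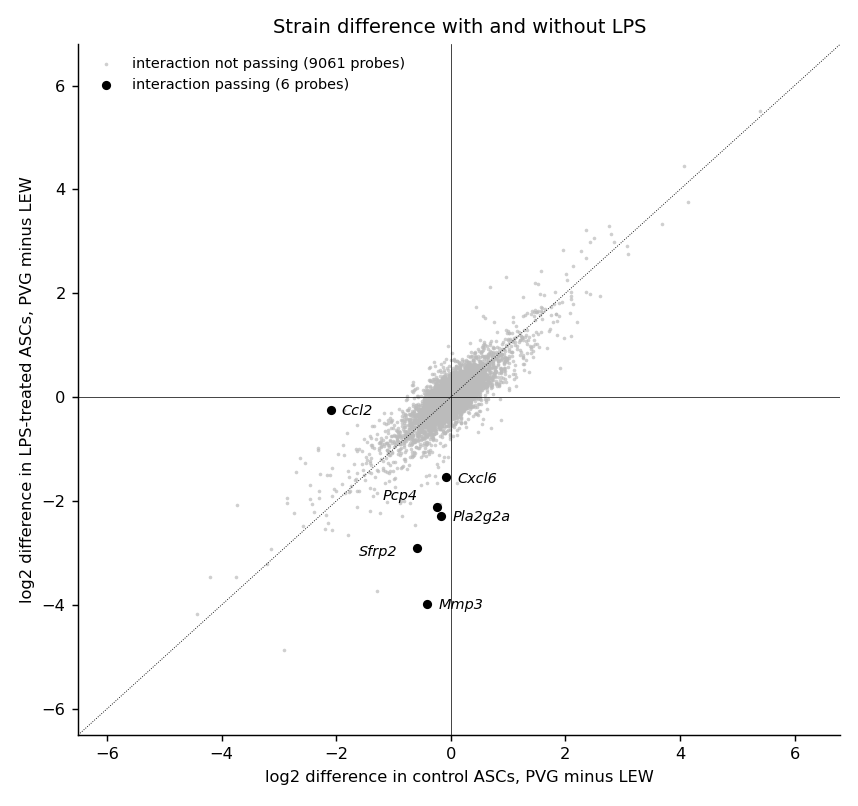
Each point is 1 of 9067 tested probes, with the log2 difference PVG minus LEW in control ASCs on the x axis and in LPS-treated ASCs on the y axis, both from the limma fit. The 6 genes whose difference changed with LPS are labelled; Actg2, at 5.40 and 5.50, lies near the line of equal differences, and Mmp3, at -0.41 and -3.98, lies far below it.

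In 5 of the 6 genes the strain difference in favour of LEW was larger with LPS. Mmp3 had control signals of 84.8 and 79.8 in LEW and 56 and 68.7 in PVG, against 1402 and 2380 in LEW and 135 and 100 in PVG with LPS (interaction -3.57, SE 0.32, adjusted p = 0.00300). Pla2g2a was undetected on all control arrays (71.2 and 72 in LEW and 57.6 and 71 in PVG) and differed with LPS as given above (-2.13, SE 0.17, adjusted p = 0.00251). Cxcl6 was likewise undetected in the controls (-1.46, SE 0.19, adjusted p = 0.0296). In these genes the LPS signal of LEW stood above that of PVG while the controls of both strains were near background. Pcp4, the gene of a calmodulin-binding peptide, had 86.4 and 90.6 in LEW controls, 65.1 and 85.7 in PVG controls, where it was undetected, 333 and 491 in LEW with LPS and 88.9 and 98.2 in PVG with LPS (-1.87, SE 0.20, adjusted p = 0.00687). Sfrp2 had 104 and 114 in LEW and 68.6 and 75.4 in PVG in the controls, undetected in PVG (-2.32, SE 0.32, adjusted p = 0.0388). Ccl2 went the other way, since its control signals of 3712 and 3234 in LEW and 866 and 755 in PVG lay further apart than 8974 and 9784 in LEW and 7615 and 8269 in PVG with LPS (1.86, SE 0.19, adjusted p = 0.00499). No probe passed the interaction when either PVG control array was left out, while leaving out LEW with LPS at 24 h gave 110 probes and at 48 h gave 10. Mmp3 and Pla2g2a were the 2 that passed without the PVG LPS 48 h array, and these with Ccl2 were the 3 that passed with no time point block.

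**Figure D5:**
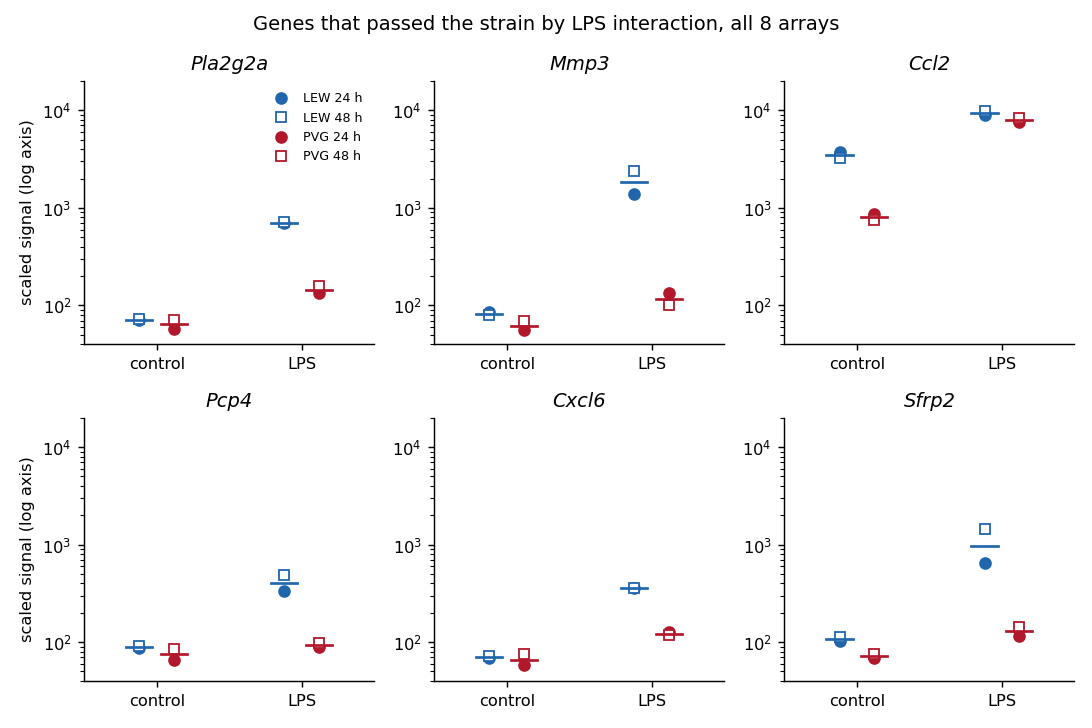
Scaled signals of the 6 genes that passed the strain by LPS interaction, on a log axis, 1 panel a gene, with the 8 arrays grouped by strain and treatment. Filled circles are 24 h, open squares 48 h and bars the geometric mean of the 2 arrays of a group; for Ccl2 the strains differ in the controls and lie close with LPS, and for the other 5 genes LEW with LPS is the highest group.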

How the data were processed

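Bead intensities of 8 Illumina RatRef-12 arrays, 22523 probes each, were used. The authors deposited them on a linear scale, as averaged bead intensities without normalization or background subtraction per the file headers, and beside each a detection p-value that the authors' software computed from the negative controls of the array. A second table of intensities deposited by the authors was normalized between arrays, with equal quantiles, and served as an alternative. Gene symbols came from the platform annotation and were updated through Entrez identifiers, with 13793 probes carrying 1 symbol and 8730 none.

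Each array was scaled to the same 75th percentile, 132.1. A floor of 16 altered none of the values before log2 was taken. The fit kept 9067 of 22523 probes, covering 6677 genes, that both arrays of a LPS group detected (p under 0.05). limma 3.58.1 in R 4.3.3 fitted the 4 groups of strain and treatment over all 8 arrays with the time point as a block (3 residual and 6.918 prior degrees of freedom), and the procedure was tested on simulated data. Tables and figures used pandas 2.3.3, matplotlib 3.10.9 and numpy 2.4.6 under Python 3.11.15. The groups share the 24 h and 48 h labels, and the control and LPS arrays of a strain share the same rats, while LEW and PVG arrays share none. The precision is limited by the number of arrays.

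The members and gene lists were chosen with earlier results of these data known. The 199 named genes were the 15 with the largest difference in each direction, up to 5 of each list with the smallest p, those followed from the study's tables, those passing the interaction, and the cell type markers. Tlr4, Srf, and list members named without values were chosen after their values were seen. Symbols whose listed synonym belongs to another gene were left unmatched. The methods name female Lewis rats for the isolation of ASCs and male rats among the animals. Sex was not checked, since no probe of the sex-linked list carried a symbol here. Alternatives covered the time point block, normalization, background correction, floor, detection filters, the intensity trend, an analysis of variance without moderation, the LPS arrays alone and each array left out. Where this left 1 array in a group, its variance was taken from the other groups.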

Additional observations from a re-analysis of the deposited data

Results flagged for a closer look

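For 6 genes the strain difference with LPS differed from that in the controls in the limma interaction test, which is what brought them here. The interaction on the log2 scale (adjusted p) was -3.57 for Mmp3 (0.00300), -2.32 for Sfrp2 (0.0388), -2.13 for Pla2g2a (0.00251), -1.87 for Pcp4 (0.00687), -1.46 for Cxcl6 (0.0296) and 1.86 for Ccl2 (0.00499). A negative value means a larger difference in favour of LEW with LPS. Without the PVG control 24 h or 48 h array none of the 6 passed, and in the analysis of variance without moderation none passed, with 283 probes at an unadjusted p under 0.05. Pla2g2a and Cxcl6 were undetected on all 4 control arrays and Mmp3, Pcp4 and Sfrp2 on both PVG control arrays, so the size of these interactions depends in part on the background.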

How the results depend on the processing

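The count of strain differences with LPS (1179 probes) was 580 without the time point block, 208 with the 4 LPS arrays alone and no block, and 62 in the analysis of variance without moderation. With 1 array left out, the count was between 434 and 1540. It was between 901 and 1552 under quantile normalization, neqc, normexp, the authors' second table, the floor of 64, the other detection filters, the intensity trend, separate time blocks and the LPS arrays alone with the block. No probe that passed in both changed direction. For the interaction (6 probes) the count was 3 without the block, 10 with the intensity trend, 42 with no detection filter, 0 in the analysis of variance, and between 0 and 110 with 1 array left out. Differences of at least 1.5-fold between single arrays numbered 1338 at 24 h, 2174 at 48 h and 927 at both after neqc, which subtracts background and widens the differences of dim probes. Of 153 passing genes followed through the alternatives, not all of them printed, 21 kept the call under every alternative and 103 with any 1 array left out, and none was reversed. In the analysis of variance 21 of the 153 passed, and without the time point block 110. Of 49 followed genes that did not pass, 14 passed under at least 1 alternative or with 1 array left out. Dim probes are limited by the background, which the scaled signals keep.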

Other observations

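Beyond the lists, 218 of the 1179 probes that passed carried no gene symbol here and are not named. Of all probes, 226 were detected on both LEW LPS arrays and on neither PVG LPS array, and 220 the other way round.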
